A study of Mus musculus with 5 samples.

Results

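The genes described here are 10 of the 31053 genes in the count tables, chosen by name with earlier results of these data known, though no measured value enters the rule. They are 5 chains of the fibrillar collagens (*Col1a1*, *Col1a2*, *Col3a1*, *Col5a1* and *Col5a2*), 3 glycoproteins of the provisional matrix (*Fn1*, *Tnc* and *Postn*), and *Eln* and *Lox*, which encode the core and a cross-linking enzyme of elastic fibres. They were measured by single-cell RNA sequencing of CD45- Ter119- viable cells sorted from adult mouse lung. AT2-KO mice (Itgb1 iKO in the labels) carried floxed *Itgb1*, Tet-O-Cre and an rtTA under the SP-C promoter, which deletes β1 integrin in surfactant-producing alveolar type 2 (AT2) cells. Littermate fl/fl controls (Itgb1 fl/fl) carried the same floxed alleles without rtTA or Cre. Mice of both genotypes were on a C57BL/6 background, drank doxycycline for 4 weeks from postnatal day 28, spent 1 month without it and received intratracheal LPS or PBS at 3 months of age. The 5 libraries were fl/fl LPS day 7, AT2-KO LPS day 7, AT2-KO PBS day 7, fl/fl LPS day 21 and AT2-KO LPS day 21. A PBS library of fl/fl mice was not analysed here, so LPS was compared with PBS within AT2-KO only, and the fl/fl LPS library differs from PBS in both genotype and treatment. To the suspensions of day 21, sorted EPCAM+ epithelial cells had been added at about 1 part in 3.

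Fibrillar collagens are secreted as triple helices of procollagen chains and assemble into the fibrils that give tissue its tensile strength, with type V collagen at the core of fibrils of types I and III. After injury, fibronectin, tenascin-C and periostin form an early, provisional matrix on which cells migrate and onto which collagen is laid down. Elastin lets the alveolar wall recoil, and lysyl oxidase joins elastin and collagen molecules by covalent bonds. In the lung these genes are used mainly by mesenchymal cells, which include alveolar and adventitial fibroblasts, pericytes, smooth muscle cells and myofibroblasts.

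After filtering, 29500 cells remained, from 2224 to 8671 per library, with 8360954 to 29128331 unique molecular identifiers (UMIs) per library and 2219 to 5330 per median cell. Pairs of libraries shared 15 to 102 cell barcodes, at most 1.41% of a library. Cells were put into classes by a few rule genes, none of them a member. A mesenchymal cell held at least 2 of *Pdgfra*, *Pdgfrb*, *Tcf21*, *Dcn* and *Mgp* and no UMI of *Cdh5*, *Pecam1* or *Epcam*, which left 398, 580, 128, 437 and 237 cells, the libraries being in the order just given. All 10 further mesenchymal markers on the check list were detected in these cells in every library, with summed levels of 28040 to 40620 UMIs per 1000000 UMIs of the class (CPM). Of other markers, *Ptprc* stood at 0.325 CPM or less, and a list of 8 AT2 markers that leaves out *Sftpc* summed to 122 to 670 CPM except in AT2-KO day 21, where it reached 5224 CPM. Levels of further immune markers and of endothelial and airway markers in these cells are not given here. Each library is 1 sample that pools mice. Cells carrying a single hashtag antibody were assigned to 3 mice per library, and these mice are the replicates of the tests, but a library effect and its group cannot be told apart. Single hashtags were carried by 51.0%, 48.3%, 8.59%, 18.5% and 27.8% of mesenchymal cells, which left 2 to 6 tagged mesenchymal cells per PBS mouse against 16 to 162 in the LPS mice. *Itgb1* in AT2 cells stood at 274 CPM in fl/fl and 171 CPM in AT2-KO at day 7 after LPS, and at 364 and 153 CPM at day 21. Sex differed between and within libraries. Cells of the fl/fl day 7 mice held *Xist* at 291 to 317 CPM and no Y-linked UMI, whereas those of the AT2-KO LPS day 7 mice held Y-linked genes at 147 to 157 CPM, so that at day 7 genotype and sex cannot be told apart. In the PBS library mouse 1 held *Xist* (199 CPM) and mice 2 and 3 Y-linked RNA (136 and 147 CPM), and in AT2-KO day 21 mouse 1 held *Xist* (145 CPM) and mice 2 and 3 Y-linked RNA (77.2 and 106 CPM). In fl/fl day 21 mice 2 and 3 held *Xist* (247 and 212 CPM), and the hashtag counted as mouse 1 held both *Xist* (92.6 CPM) and Y-linked RNA (83.2 CPM), so that it may mark more than 1 mouse. The part of sex in the tests of treatment, day and genotype was not tested.

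The members lie on several chromosomes in GRCm38, as annotated by GENCODE. *Col3a1* (ENSMUSG00000026043) is at chr1:45311538-45349706 on the plus strand and *Col5a2* (ENSMUSG00000026042) at chr1:45374321-45503282 on the minus strand, with 24.6 kb between them, and *Fn1* (ENSMUSG00000026193) is farther along at chr1:71585520-71653200 on the minus strand. *Col1a1* (ENSMUSG00000001506) is at chr11:94936224-94953042 and *Col1a2* (ENSMUSG00000029661) at chr6:4504814-4541544, both on the plus strand. *Col5a1* (ENSMUSG00000026837) is at chr2:27886425-28039514 on the plus strand, *Tnc* (ENSMUSG00000028364) at chr4:63959785-64047015 on the minus strand, *Postn* (ENSMUSG00000027750) at chr3:54361109-54391037 on the plus strand and *Eln* (ENSMUSG00000029675) at chr5:134702593-134747323 on the minus strand. Annotated genes overlap *Col1a2*, *Col3a1* and *Col5a2* on the same strand and *Col5a1*, *Fn1*, *Tnc*, *Eln* and *Lox* on the opposite strand, and how the counts divided reads between overlapping genes is not given in the sources used here.

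Windows of the RefSeq promoter table for GRCm38.p6 were read for 5 of the 10 members, each covering 250 bases before an annotated start and 50 after it. *Lox* was left out of this search. The windows below are shown for *Postn* and *Tnc*, glycoproteins whose levels took different courses after LPS, and for *Col1a2*, one of the collagen chains whose levels ran in parallel. Capitals mark TATATAA in the first pair of windows and CCAAT or its reverse complement ATTGG in the *Col1a2* window.
Postn, chr3:54360857-54361156, plus strand: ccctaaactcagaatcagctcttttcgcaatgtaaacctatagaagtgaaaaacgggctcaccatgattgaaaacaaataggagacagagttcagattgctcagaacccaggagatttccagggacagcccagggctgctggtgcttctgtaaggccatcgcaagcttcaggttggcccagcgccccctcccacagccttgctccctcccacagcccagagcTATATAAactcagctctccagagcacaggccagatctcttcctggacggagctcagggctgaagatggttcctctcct
Tnc, chr4:64046887-64047186, minus strand: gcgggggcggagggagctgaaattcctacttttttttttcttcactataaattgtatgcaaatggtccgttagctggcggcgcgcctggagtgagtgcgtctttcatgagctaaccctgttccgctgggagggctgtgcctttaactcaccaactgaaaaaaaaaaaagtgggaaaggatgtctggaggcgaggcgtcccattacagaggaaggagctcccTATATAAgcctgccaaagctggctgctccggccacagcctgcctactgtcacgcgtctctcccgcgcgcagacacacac
Col1a2, chr6:4505368-4505667, plus strand: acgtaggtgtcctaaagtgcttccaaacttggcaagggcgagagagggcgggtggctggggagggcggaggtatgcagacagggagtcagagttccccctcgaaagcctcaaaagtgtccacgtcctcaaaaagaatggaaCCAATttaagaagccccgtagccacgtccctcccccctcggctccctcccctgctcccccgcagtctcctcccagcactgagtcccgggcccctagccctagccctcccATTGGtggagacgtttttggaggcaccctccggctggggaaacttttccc
TATATAA lay 28 bases before the start in the *Postn* window and 29 bases before it in the *Tnc* window, and on either strand it occurred in 3.24% of all 32851 windows. CCAAT occurred in 37.4% of windows on either strand and lay 109 bases before the *Col1a2* start. ATTGG lay 0 bases before that start, which is at the start itself. The whole *Col1a2* window lies inside the gene as annotated by GENCODE. The windows of *Col3a1* and *Col5a1* held neither. *Postn* and *Tnc* each had another window without TATATAA, at chr3:54359017-54359316 and chr4:64046966-64047265, and that of *Postn* held ATTGG. Both motifs were chosen after the sequences had been read, and a match describes the letters only.

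The first comparison was that of LPS with PBS at day 7. In mesenchymal cells of AT2-KO lungs, 8 of the 10 members were more than 2-fold higher after LPS than after PBS, against 4.27% of 5623 genes with enough UMIs in these libraries. All 5 collagen chains were among them at 2.58-fold to 3.97-fold, with *Eln* at 2.98-fold, and *Fn1* and *Tnc* stood furthest apart at 14.3-fold and 11.2-fold. *Lox* was 1.61-fold higher and *Postn* level at 1.02-fold. These are ratios of 1 library to 1 library, with no replicate check, and their intervals cover counting error only.

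*Col1a1*, the α1 chain of type I collagen, stood at 9443 CPM (95% Poisson interval 9315 to 9572) in fl/fl and 9788 (9678 to 9899) in AT2-KO at day 7 after LPS, at 2463 (2312 to 2621) after PBS, and at 3430 (3340 to 3522) and 3139 (3017 to 3265) in fl/fl and AT2-KO at day 21. *Col1a2*, its partner chain, ran from 4616 and 4874 CPM after LPS at day 7 to 1323 after PBS and to 2790 and 2390 at day 21. Both chains were therefore high in the day 7 LPS libraries of either genotype and nearer to PBS at day 21. *Col3a1*, the single chain of type III collagen, followed with 9416, 10561, 4089, 4929 and 4559 CPM in the order fl/fl day 7, AT2-KO day 7, PBS, fl/fl day 21 and AT2-KO day 21. The type V chains, which limit fibril diameter, were at 724, 860, 263, 314 and 293 CPM for *Col5a1* and at 1554, 1371, 405, 568 and 684 CPM for *Col5a2*. For each of the 5 chains the PBS library was the lowest of the 5 libraries, for *Col3a1* and *Col5a1* only narrowly so, with AT2-KO day 21 at 1.11-fold of PBS for both.

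*Fn1*, which encodes fibronectin, stood at 2873 CPM in fl/fl and 2585 CPM in AT2-KO at day 7 after LPS against 181 (142 to 228) after PBS, and at day 21 it stood at 555 (519 to 593) in fl/fl and 994 (926 to 1070) in AT2-KO. *Tnc*, which encodes tenascin-C, a hexameric glycoprotein of wounds and developing tissue, was at 417 and 472 CPM at day 7 against 42.2 (24.6 to 67.6) after PBS, and at 79.97 and 97.4 CPM at day 21. *Postn*, which encodes periostin, took another course: its 5 libraries lay between 1124 and 1434 CPM, with PBS at 1306. *Eln*, which encodes the elastin precursor, stood at 3662 CPM in fl/fl and 2731 CPM in AT2-KO at day 7 after LPS, at 916 after PBS, and at 970 and 1029 at day 21. *Lox*, which encodes lysyl oxidase, was at 278, 345, 214, 139 and 201 CPM in the same order of libraries, so that its PBS level lay above both fl/fl and AT2-KO at day 21.

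**Figure D1:**
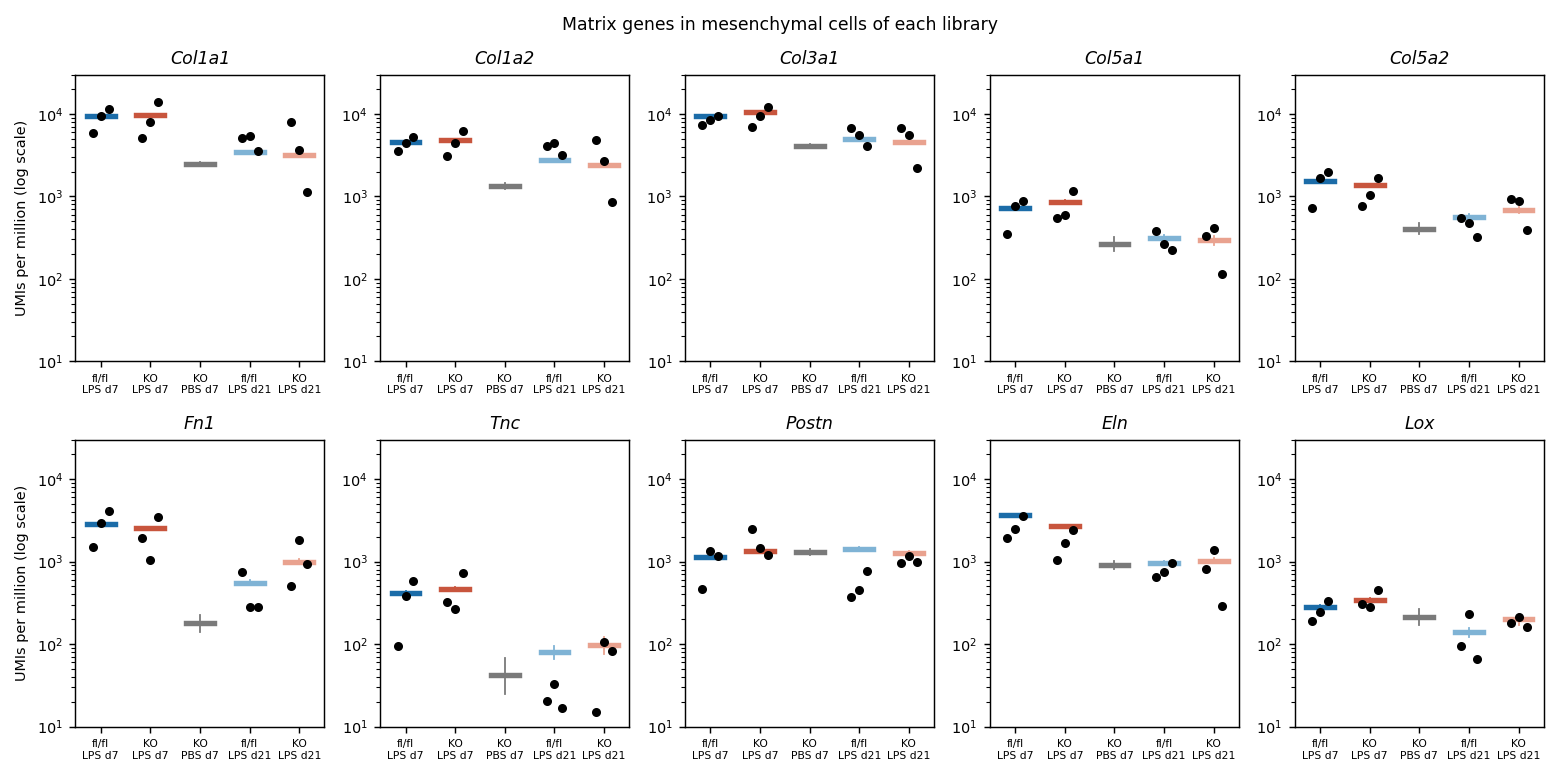
Level of each member in mesenchymal cells, in CPM, by library. Bars give the library level with its 95% Poisson interval as a line, and points give single mice with at least 10 cells, so that no PBS mouse is drawn. The bars of the 5 collagen chains, *Fn1*, *Tnc* and *Eln* are tallest in both day 7 LPS libraries, while *Postn* stays between 1124 and 1434 CPM.

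The share of cells with a UMI was also taken after every cell had been thinned to 1500 UMIs, which left out 18 to 54 cells per library. *Fn1* was found in 61.3% of thinned mesenchymal cells in fl/fl and 57.6% in AT2-KO at day 7 after LPS, in 13.6% after PBS, and in 28.1% and 41.7% at day 21. Without thinning these shares were 74.4%, 68.8%, 21.9%, 39.1% and 47.7%. In thinned endothelial cells, used as a class that should hold little of its own, *Fn1* was found in 0.507% to 4.84%. The median mesenchymal cell held 2701 to 4412.5 UMIs before thinning. *Col1a1* was found in 92.8%, 92.4%, 77.3%, 77.1% and 72.0% of thinned mesenchymal cells, so that by share PBS lay at or above the day 21 libraries, unlike by level. *Tnc* was found in 21.3%, 23.4%, 5.46%, 9.12% and 11.9%. *Postn* was found in 28.5%, 26.2%, 14.6%, 26.6% and 27.96%, so that its PBS library was the lowest by share although not by level.

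No PBS mouse had 10 tagged mesenchymal cells, so the planned test of LPS against PBS over mice could not be made, and a test at 2 cells per mouse was added after seeing the data. It called 105 of 3996 genes (2.63%), 99 of them higher (2.48%), by edgeR's quasi-likelihood test with Benjamini-Hochberg adjustment. Of the 10 members, 6 passed, all higher after LPS. *Col3a1* rose by 2.04 ± 0.47 on the log2 scale (SE, adjusted p = 0.0306), from 2365, 6175 and 1899 CPM in the PBS mice to 6959, 9441 and 12239 CPM in the LPS mice. These groups do not overlap. *Col1a1* rose by 2.42 ± 0.63 (adjusted p = 0.0471), from 1088, 5113 and 1554 CPM to 5126, 8013 and 13762 CPM, and PBS mouse 2 lay just below the lowest LPS mouse. *Col5a2* rose by 2.54 ± 0.61 (adjusted p = 0.0355) and *Fn1* by 5.06 ± 0.85 (adjusted p = 0.0123), the latter from 94.6, 193 and 0 CPM to 1938, 1038 and 3519 CPM. *Lox* passed at 2.86 ± 0.75 (adjusted p = 0.0491), as did *Tnc* (adjusted p = 0.0437), whose fitted value is no bound because all 3 PBS mice held 0 UMIs. For *Lox* PBS mice 2 and 3 also held 0 UMIs and mouse 1 held 3, so its fitted value is no bound either, and the libraries of all mesenchymal cells gave 1.61-fold. *Col5a1* (1.87 ± 0.54, adjusted p = 0.0738), *Col1a2* (1.80 ± 0.62, adjusted p = 0.135), *Eln* (0.94 ± 0.54, adjusted p = 0.391) and *Postn* (-1.01 ± 0.71, adjusted p = 0.496) did not pass. The sign for *Postn* goes with the tagged cells, where it stood at 5338 CPM after PBS against 1306 CPM in all PBS mesenchymal cells. The PBS sums rest on 6, 2 and 3 cells, of which mouse 1 gave 3 alveolar fibroblasts and 3 pericytes, mouse 2 an adventitial and a mesothelial cell, and mouse 3 only pericytes. Leaving out each mouse in turn left 1 to 5 members called, and *Fn1* alone passed in every such fit (adjusted p = 0.00747 to 0.037). Without AT2-KO LPS mouse 3 or PBS mouse 3 no other member passed, and without PBS mouse 1 the calls of *Col1a1* (0.109), *Col3a1* (0.0517) and *Tnc* (0.0979) were lost. Without PBS mouse 2 those of *Col5a2* (0.0581), *Tnc* and *Lox* (0.08) were lost and *Col1a2* gained one (0.0082), without AT2-KO LPS mouse 2 that of *Col1a1* (0.0516), and without AT2-KO LPS mouse 1 that of *Lox* (0.0504). With DESeq2 in place of edgeR the call of *Lox* was also lost (adjusted p = 0.12).

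Because the LPS and PBS libraries differed in the make-up of their mesenchymal cells, the members were also read within subtypes, gated on marker lists that hold none of them. Smooth muscle cells and myofibroblasts, gated together, made up 30.5% of mesenchymal cells after PBS and 13.6% in AT2-KO after LPS at day 7, and alveolar fibroblasts 20.3% and 35.7%. In the gated smooth muscle and myofibroblast cells, 9 of the 10 members were more than 2-fold higher in AT2-KO after LPS than after PBS, against 16.3% of 1291 genes. *Col1a1* stood at 11280 CPM after LPS and 1666 after PBS (6.77-fold, counting interval 5.86 to 7.87) and *Col1a2* at 4830 and 549 CPM (8.79-fold, 6.84 to 11.5). *Fn1* was at 4022 CPM after LPS and at 0 UMIs in the 39 PBS cells, which allows up to 32.7 CPM by the exact interval. Its ratio was 151 against a floor of 3 counts, which lies below that limit, so the ratio is no lower bound. *Postn* was at 1413 and 8.86 CPM, the latter a single UMI, with a ratio of 159 and a counting interval of 28.6 to 6310. *Tnc* (28.9-fold), *Lox* (9.43-fold), *Col5a1* (6.40-fold), *Col5a2* (4.02-fold) and *Eln* (2.91-fold) lay between, and *Col3a1* had the smallest ratio at 1.5-fold. The fl/fl LPS library set against the same PBS library also gave 9 members, against 17.1% of 1114 genes. The leading gene of the subtype's own marker list was *Acta2* in the LPS libraries of day 7 and *Tagln* elsewhere. The list summed to 11950 CPM in AT2-KO after LPS against 6166 CPM after PBS, so contractile genes moved with the members in this gate. Lists of other subtypes also did, at 207 against 8.86 CPM for adventitial fibroblasts, 292 against 168 for alveolar fibroblasts and 508 against 275 for pericytes. The part of these shifts in the result was not tested.

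In pericytes, the mural cells of capillaries, *Postn* was at 10062 CPM after PBS, 8982 in AT2-KO and 4627 in fl/fl after LPS at day 7, and 7785 and 7026 in fl/fl and AT2-KO at day 21. These were the highest *Postn* levels of the gated subtypes in every library. The type I chains and *Fn1* were higher after LPS in the same cells. *Col1a1* stood at 3195 CPM in AT2-KO after LPS and at 822 after PBS (3.89-fold, 2.85 to 5.44). *Fn1* was at 2186 CPM against 0 UMIs, at least 30.2-fold by the counting interval and 37.2-fold against a floor of 3 counts. Of the 10 members, 5 were more than 2-fold higher in AT2-KO pericytes, against 4.0% of 400 genes. With fl/fl LPS in place of AT2-KO LPS, 8 were higher and *Postn* was lower at 0.46-fold (0.414 to 0.511), against 15.5% of 496 genes higher and 5.65% lower. The pericyte marker list itself stood at 6755 CPM in fl/fl after LPS, 10380 after PBS and 12020 in AT2-KO after LPS. In the same order *Mgp* was at 9783, 3250 and 3108 CPM and *Bgn* at 4011, 2819 and 2496 CPM. *Dcn* (125, 1038 and 105 CPM), *Lum* (22.7, 196 and 17.5 CPM) and *Gsn* (862, 2427 and 774 CPM) were highest after PBS. *Tcf21* was also highest after PBS, and *Aspn* and *Ecm2* in AT2-KO after LPS. The part of these shifts in the fl/fl and AT2-KO values was not tested. The pericyte gate held 19 cells after PBS and 56 to 102 in the other libraries.

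In alveolar fibroblasts, the *Tcf21* and *Pdgfra* cells of the septum, 8 members were more than 2-fold higher in AT2-KO after LPS than after PBS, against 7.35% of 1333 genes. *Eln* stood at 6215 CPM after LPS and 1234 after PBS (5.03-fold, 4.10 to 6.25), and *Fn1* at 3875 and 478 CPM (8.11-fold, 5.84 to 11.6). *Lox* was at 390 and 279 CPM, a ratio of 1.40 whose interval (0.897 to 2.29) includes 1. *Postn* was at 87.9 CPM after LPS and at 0 UMIs after PBS. The gate's own marker list was at 7090 CPM after LPS and 7858 after PBS, and the adventitial list at 2123 and 1075 CPM. The smooth muscle and myofibroblast list was at 857.5 and 597.3 CPM and the pericyte list at 216.4 and 79.65 CPM. The part of these shifts in the members' result was not tested. Adventitial fibroblasts, which surround airways and larger vessels, gave 7 members against 4.2% of 2002 genes. *Col3a1* stood at 15512 and 5023 CPM in them (3.09-fold, 2.84 to 3.36) and *Fn1* at 1116 and 292 CPM (3.83-fold, 2.71 to 5.58). *Postn* was at 457 CPM against 0 UMIs, 17.2-fold against a floor of 3 counts, which is no lower bound. *Lox* was lower in these cells after LPS, at 350 against 513 CPM (0.682-fold, 0.518 to 0.914), whereas in the smooth muscle and myofibroblast gate it was higher. *Tnc* was nearly absent from adventitial fibroblasts, with 0 to 24.1 CPM in the 5 libraries, against 92.9 to 532 CPM in alveolar fibroblasts.

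**Figure D2:**
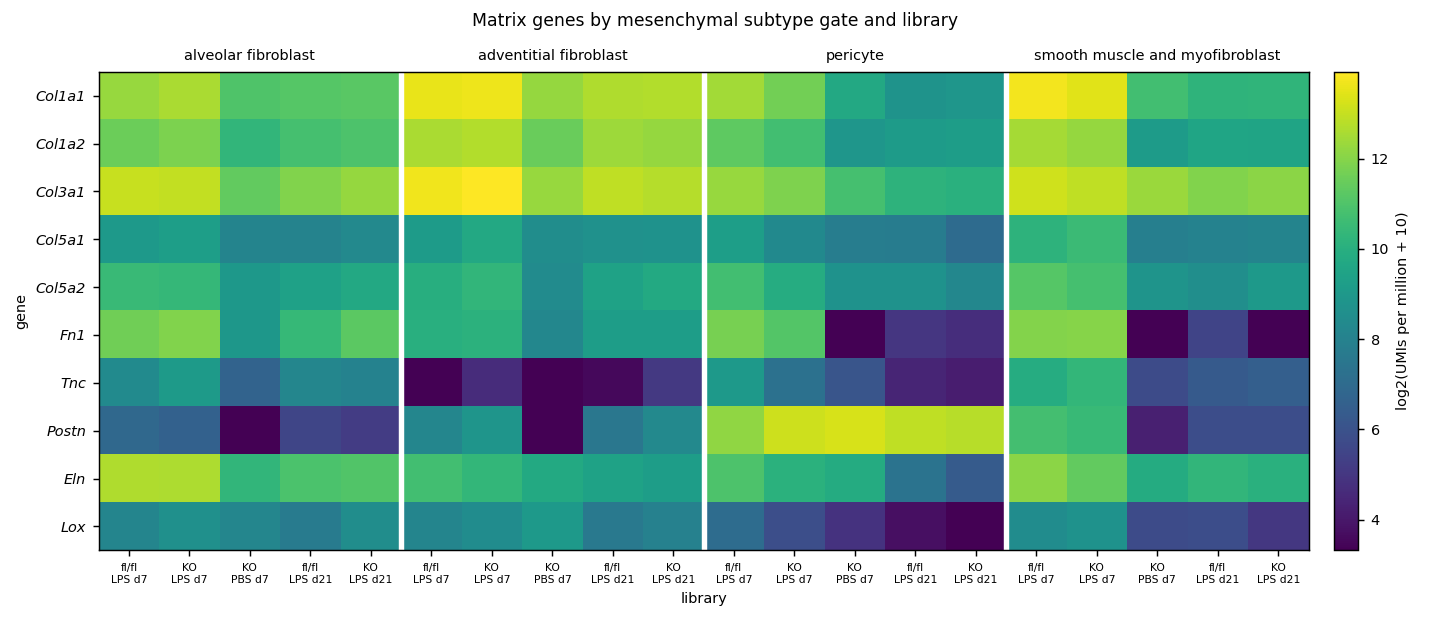
Level of each member in gated mesenchymal subtypes by library, as log2(CPM + 10) shown by colour. *Postn* is highest in pericytes in every library, and *Fn1* in pericytes and in smooth muscle and myofibroblast cells goes from 2186 to 4022 CPM at day 7 after LPS to 35.5 CPM or less in the other libraries.

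The second comparison was that of day 21 with day 7 after LPS, added after seeing the data. In fl/fl mesenchymal cells 7 of the 10 members were more than 2-fold lower at day 21, against 2.86% of 6151 genes, and in AT2-KO cells 8 were, against 2.52% of 6113 genes. *Fn1* and *Tnc* stood at 0.193-fold and 0.192-fold of day 7 in fl/fl, and at 0.384-fold and 0.206-fold in AT2-KO. *Col1a1* was at 0.363-fold and 0.321-fold, *Eln* at 0.265-fold and 0.377-fold, and *Postn* at 1.28-fold and 0.946-fold in fl/fl and AT2-KO. Against the PBS library, AT2-KO at day 21 had 1 member more than 2-fold higher, *Fn1* at 5.48-fold (4.31 to 7.07), against 5.94% of 2189 genes. The other 9 ranged from 0.942-fold to 2.31-fold, where *Tnc* (2.31-fold) had too few UMIs to be counted.

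Over mice, edgeR called 27 of 4422 genes (0.611%) between the days in fl/fl, and 2 of the 10 members were among them, both lower at day 21 (0.362% of all genes tested were lower). *Fn1* fell by 2.65 ± 0.54 on the log2 scale (SE, adjusted p = 0.0438), from 1496, 2943 and 4090 CPM at day 7 to 742, 284 and 279 CPM at day 21, with no overlap. *Tnc* fell by 3.98 ± 0.74 (adjusted p = 0.0294), from 94.8, 381 and 584 CPM to 20.4, 32.7 and 16.7 CPM, again with no overlap. The only groups in which 3 mice reached the CPM that the filter on low counts asked for *Tnc* were those of day 7 after LPS, so its fall, like its rise after LPS, is not independent of that filter. The fitted difference was negative for all 10 members, with a median of -1.10 against 0.01 over all genes tested, and 7 had an unadjusted p under 0.05. The share of all genes under that p is not given here, so the count of 7 is a description. For *Postn* (-0.85 log2 units, adjusted p = 0.302) the library of all mesenchymal cells ran the other way, at 1.28-fold, whereas tagged cells alone gave 0.502-fold. *Col5a2* (-1.66 ± 0.40, adjusted p = 0.0682) and *Eln* (-1.70 ± 0.42, adjusted p = 0.0685) came next. *Col1a1* did not pass (-0.87 ± 0.50, adjusted p = 0.449), with mice at 5925, 9507 and 11374 CPM at day 7 and 5163, 5379 and 3499 CPM at day 21, where the lowest of day 7 lay close to the highest of day 21. Both calls were lost when 20 cells per mouse were required (adjusted p = 0.158 for *Fn1* and 0.112 for *Tnc*), under another hashtag rule (0.136 and 0.194), in a stricter gate for *Tnc* (0.0672), and on leaving out any fl/fl mouse other than mouse 1 of day 7 (0.079 to 0.177 for *Fn1* and 0.0799 to 0.149 for *Tnc*). DESeq2 called 4 members (1.7% of genes).

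In AT2-KO, edgeR called 58 genes between the days (1.31%) and none of the 10 members, of which 6 had an unadjusted p under 0.05 and all had negative fitted differences. The share of all genes with such a p or sign is not given here. DESeq2 called 1 member (1.67% of genes). *Tnc* had the smallest p, at -2.60 ± 0.65 (adjusted p = 0.0775), with mice at 322, 265 and 731 CPM at day 7 and 15.002, 106 and 81.5 CPM at day 21. *Fn1* stood at 1938, 1038 and 3519 CPM and at 510, 1849 and 945 CPM (-0.95 ± 0.51, adjusted p = 0.421), so its mice overlapped where those of fl/fl did not. Whether the change between days differed between genotypes was tested with an interaction term, which gave 1.70 ± 0.73 for *Fn1* (adjusted p = 0.578) and did not pass. That test called 1 of 4422 genes (0.0226%) and none of the 10 members, 1 of which, *Fn1*, had an unadjusted p under 0.05, and DESeq2 called no member.

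**Figure D3:**
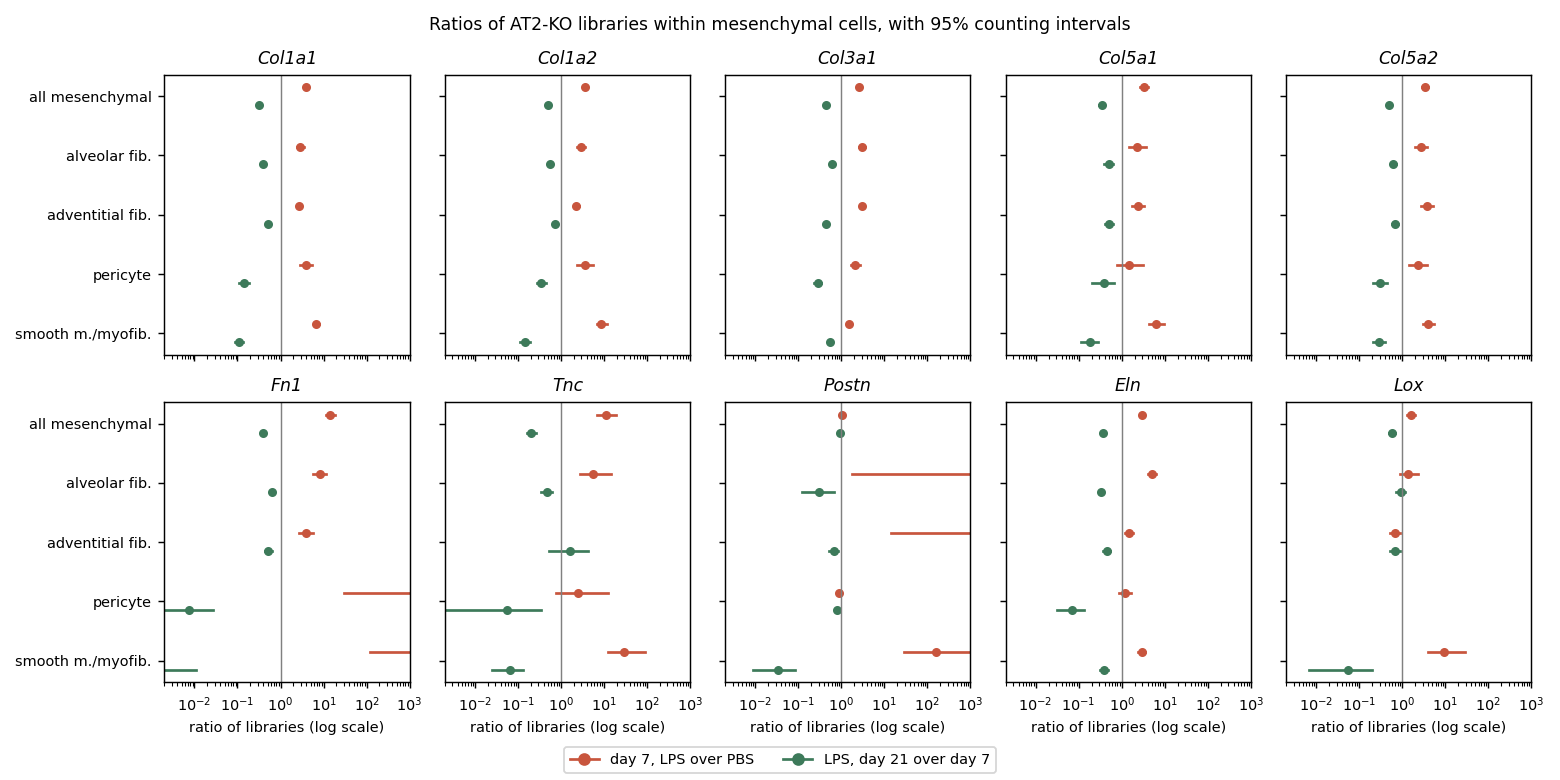
Ratios of AT2-KO libraries for each member, in all mesenchymal cells and in each gated subtype, on a log axis, with 95% counting intervals. Red gives day 7 LPS over PBS and green gives LPS day 21 over day 7. Lines without a point have 0 UMIs in 1 of the libraries, ratios resting on fewer than 20 UMIs are not drawn, and lines that run past the axis are cut there. Most red points lie right of 1 and most green points left of it, with *Postn* in pericytes close to 1 for both.

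Within subtypes the median member stood at 0.134-fold of day 7 in fl/fl and 0.13-fold in AT2-KO in the smooth muscle and myofibroblast gate, and at 0.219-fold and 0.282-fold in pericytes. In fl/fl all 10 members were more than 2-fold lower there at day 21, against 14.2% of 1374 genes, and in AT2-KO 9 were, against 27.0% of 1261 genes. *Col1a1* stood at 0.0868-fold (0.0771 to 0.0976) of day 7 in fl/fl and 0.109-fold (0.0888 to 0.132) in AT2-KO, and *Fn1* at 35.5 CPM in fl/fl and 0 UMIs in AT2-KO, which allows up to 43.1 CPM. In pericytes 8 members were lower in fl/fl (14.1% of 936 genes) and 6 in AT2-KO (11.9% of 531 genes), with *Eln* at 0.078-fold and 0.0683-fold and *Col1a1* at 0.0756-fold and 0.145-fold. In alveolar fibroblasts 6 were lower in fl/fl (5.67% of 1412 genes) and 3 in AT2-KO (5.33% of 1689 genes). In adventitial fibroblasts 1 was lower in fl/fl, *Eln* (1.06% of 1882 genes), and 2 in AT2-KO, *Col3a1* and *Eln* (2.52% of 2224 genes). *Col1a1* thus stood at 0.542-fold and 0.520-fold of day 7 in the adventitial cells of fl/fl and AT2-KO. The marker list of the smooth muscle and myofibroblast gate was also lower at day 21, at 8545 against 13120 CPM in fl/fl and 5315 against 11950 CPM in AT2-KO, while the pericyte list was higher, at 14280 against 6755 CPM in fl/fl and 14860 against 12020 CPM in AT2-KO, and so was the alveolar fibroblast list, at 11870 against 5399 CPM and 11190 against 7090 CPM. The part of these shifts in the members' result was not tested.

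The third comparison was between genotypes after LPS. At day 7 no member differed by more than 2-fold between the mesenchymal cells of the AT2-KO and fl/fl libraries, against 0.854% of 7258 genes higher and 0.51% lower, and ratios ran from 0.746 for *Eln* to 1.24 for *Lox*. Within pericytes, whose marker list differed between these libraries as given above, *Tnc* was at 0.276-fold in AT2-KO (0.183 to 0.407), against 7.26% of 840 genes more than 2-fold lower, *Postn* was at 1.94-fold, and the median member with enough UMIs at 0.572-fold. Over mice, edgeR called 4 of 4422 genes (0.0905%) and none of the 10 members, and DESeq2 also called no member. *Postn* alone had an unadjusted p under 0.05, at 0.83 ± 0.37 (SE, adjusted p = 0.924), with mice at 464, 1356 and 1183 CPM in fl/fl and 2502, 1454 and 1218 CPM in AT2-KO. *Col1a1* was at 5925, 9507 and 11374 CPM in fl/fl and 5126, 8013 and 13762 CPM in AT2-KO (0.06 ± 0.50), and the groups overlapped throughout. *Eln* was at 1945, 2504 and 3603 CPM and 1060, 1661 and 2431 CPM (-0.59 ± 0.40), and *Fn1* at 1496, 2943 and 4090 CPM and 1938, 1038 and 3519 CPM (-0.34 ± 0.50). The fitted difference was positive for 7 of the 10. The SEs of the 10 ran from 0.31 to 0.50 log2 units over 3 mice against 3, and a p that misses the threshold does not show that the genotypes were alike.

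At day 21 no member was more than 2-fold apart between the libraries, against 0.696% of 4457 genes higher and 0.538% lower. *Fn1* had the largest ratio, at 1.79 (1.62 to 1.97) in favour of AT2-KO, and *Col1a2* the smallest, at 0.857. Within alveolar fibroblasts *Fn1* was at 2448 CPM in AT2-KO and 1350 CPM in fl/fl (1.81-fold, 1.61 to 2.05), whereas in adventitial fibroblasts it was at 583 and 585 CPM (0.997-fold, 0.817 to 1.21). Over mice edgeR called 11 genes (0.249%) and none of the 10 members, DESeq2 also called none, and 2 had an unadjusted p under 0.05. *Fn1* gave 1.36 ± 0.54 (SE, adjusted p = 0.436), with 742, 284 and 279 CPM in fl/fl and 510, 1849 and 945 CPM in AT2-KO, and the groups overlapped because AT2-KO mouse 1 lay below fl/fl mouse 1, the hashtag with RNA of both sexes, without which *Fn1* did not pass either (adjusted p = 0.37). *Postn* gave 0.98 ± 0.39 (adjusted p = 0.434), and here the mice did not overlap, at 368, 447 and 769 CPM in fl/fl and 975.1, 1173 and 994 CPM in AT2-KO. The libraries of all mesenchymal cells ran the other way. In them *Postn* was at 1256 CPM in AT2-KO and 1434 CPM in fl/fl (0.875-fold, 0.812 to 0.944). Pericytes gave 0.902-fold, whereas tagged cells alone gave 1.93-fold. Among tagged mesenchymal cells, pericytes made up 9.68% to 17.6% in the fl/fl mice and 21.9% to 41.2% in the AT2-KO mice. These shares did not overlap either, while pericytes made up 23.3% and 23.6% of the whole libraries. Alveolar fibroblasts made up 14.7% to 29.0% and 23.5% to 37.5% of tagged cells, and AT2-KO mouse 3 held 1 adventitial fibroblast among 17 cells. The part of this make-up in the values over mice was not tested. *Tnc* had the largest fitted difference and the largest SE (1.73 ± 0.98, adjusted p = 0.591), and 7 of the 10 were positive. *Col1a1* was at 5163, 5379 and 3499 CPM and 8041, 3625 and 1124 CPM (-0.15 ± 0.50), with the AT2-KO mice spread on both sides of fl/fl. These mice rest on 16 to 34 tagged cells each, and AT2 markers in mesenchymal cells were higher in the AT2-KO day 21 library, with *Sftpc* at 14970 CPM against 1612 CPM in fl/fl. The part of that RNA in the genotype values was not tested.

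**Figure D4:**
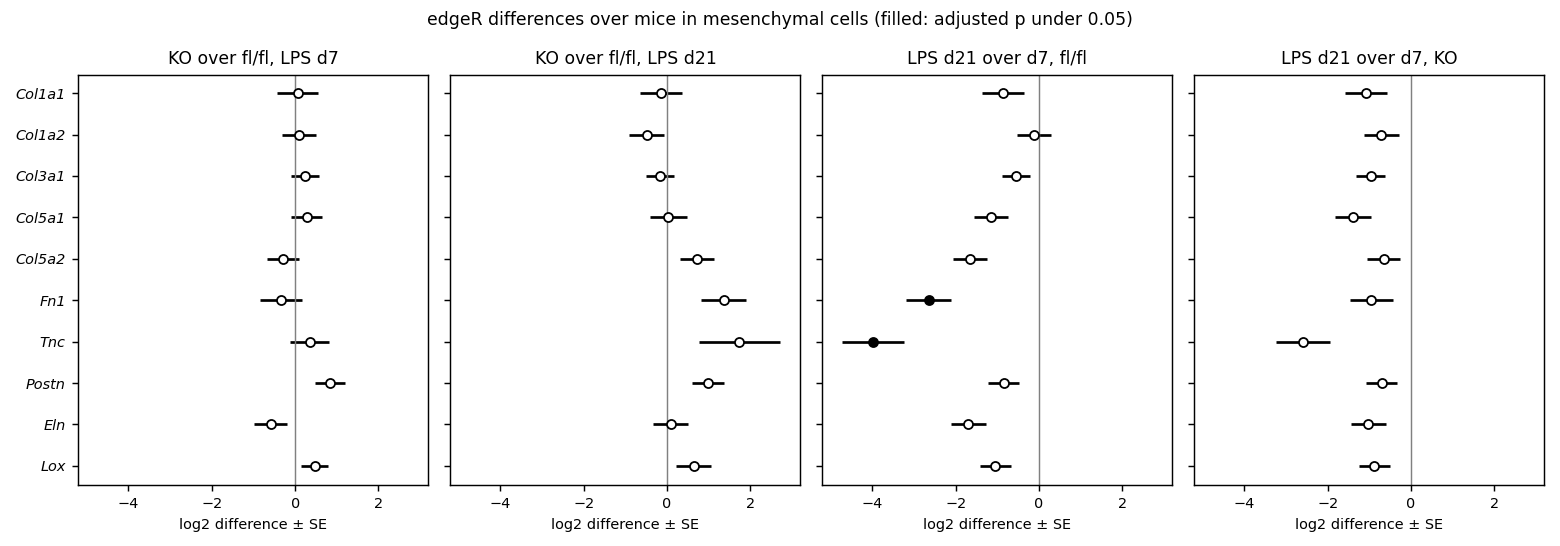
Difference of each member between groups in mesenchymal cells as fitted by edgeR over mice, in log2 units with SEs. The differences between genotypes lie on both sides of 0 at both days, with 7 of the 10 positive at each and *Tnc* the highest at day 21, and those between day 21 and day 7 lie below 0 for all 10 members in either genotype.

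The library values of a subtype were also compared as profiles for *Col1a1*, *Fn1* and *Eln*. Over 29 sums of at least 20 cells (a subtype or class in a library) and 7947 genes, the gene most like *Col1a1* was *Col1a2* (Pearson r = 0.993 of log2(CPM + 10)), followed by *Col3a1* (0.984) and *Mmp14* (0.977), which encodes a membrane-bound collagenase. *Col5a1* (0.975) and *Col5a2* (0.972) were close behind, *Eln* (0.935) and *Lox* (0.894) further off, and *Fn1* (0.815), *Tnc* (0.619) and *Postn* (0.451) least like it among the members. The genes most like *Fn1* were *Cdh11* (0.937), a mesenchymal cadherin, *Clmp* (0.917) and *Maf* (0.907). Those most like *Eln* were *Mgp* (0.966), *Col6a3* (0.961) and *Plod2* (0.956), the last a lysyl hydroxylase of collagen. The sums share libraries and differ in depth and in cell class, and *Mgp* was itself used to choose mesenchymal cells, so these values are descriptions.

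Among 89 other matrix genes listed by role, 72 or 73 could be tested in mesenchymal cells. Between genotypes none passed at day 7 or day 21, nor in the interaction of genotype and day. In LPS against PBS at 2 cells per mouse, 8 of 73 were higher (2.48% of all genes were) and none lower, with a median of 1.05 log2 units against 0.40 over all genes tested. They were *Ctsk* and *Mmp2*, proteases that degrade matrix, the type VI collagen chains *Col6a1* (1.57 ± 0.35), *Col6a2* (1.83 ± 0.42) and *Col6a3* (4.38 ± 0.80), the microfibril genes *Fbn1* (2.81 ± 0.52) and *Mfap5* (2.02 ± 0.52), and *Sparc* (1.52 ± 0.33), which binds collagen. *Mmp2* gave 2.34 ± 0.41. Leaving out each mouse in turn left 4 to 11 of the listed genes called; *Ctsk*, *Mmp2*, *Col6a3* and *Fbn1* passed in all 6 such fits, and *Mfap5* in 2 of them. By role, 3 of 14 other collagens and fibril partners, 2 of 14 elastic fibre genes, 2 of 9 turnover genes, 1 of 10 provisional and matricellular genes, and none of 15 fibril processing, 4 cross-linking and 7 receptor genes passed. Between days, *Bmp1*, which cleaves procollagen, fell by 1.43 ± 0.31 in fl/fl (adjusted p = 0.0457, edgeR), and in AT2-KO *Itga8*, an integrin subunit of fibroblasts, rose by 1.87 ± 0.30 (adjusted p = 0.00974) and *Ctsk* fell by 1.45 ± 0.32 (adjusted p = 0.0394). On leaving out each of the 6 mice in turn, *Bmp1* lost its call in 5 fits (adjusted p up to 0.203), *Itga8* in 3 (up to 0.0637) and *Ctsk* in 5 (up to 0.124), and all 3 lost it under another hashtag rule (0.134, 0.197 and 0.304).

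In endothelial cells, which held at least 2 UMIs of *Cdh5* and *Pecam1* together and were the most numerous class in every library but AT2-KO day 21, the members stood at 2.34% to 4.83% of their mesenchymal level at the median. A list of 8 mesenchymal genes whose RNA could reach other cells as free RNA stood at 1.49% to 5.13%. LPS against PBS at day 7 gave 3266 of 12123 genes (26.9%) over mice, with 14.9% of all genes tested higher, and 9 of the 10 members were higher. For *Tnc* and *Lox*, both among these, no PBS mouse reached the CPM that the filter on low counts asked for (2.38). Their rise is therefore not independent of that filter. The free-RNA list gave 7 of 8 higher. *Fn1* rose by 4.34 ± 0.59 (SE, adjusted p = 4.55e-05, edgeR), from 6.47, 1.55 and 1.55 CPM after PBS to 45.3, 58.0 and 119.9 CPM after LPS. *Col1a1* rose by 3.11 ± 0.54 (adjusted p = 0.000367), from 33.0, 50.7 and 11.6 CPM to 120.5, 225.8 and 543 CPM. *Eln* rose least among those called, by 0.71 ± 0.21 (adjusted p = 0.0203), from 78.0, 87.3 and 73.2 CPM to 119.3, 122.8 and 176 CPM, and *Postn* did not pass (1.37 ± 0.52, adjusted p = 0.0617). The call of *Eln* was lost without AT2-KO LPS mouse 3 (adjusted p = 0.109) or PBS mouse 3 (0.0789) and under another hashtag rule (0.0914), and that of *Col5a1* in cells without *Dcn*, *Mgp* or *Ptprc* (0.0814). In endothelial cells gated further to hold no *Dcn*, *Mgp* or *Ptprc*, the library level of *Col1a1* went from 351 to 37.8 CPM in AT2-KO after LPS and from 39.4 to 4.34 CPM after PBS, whereas *Postn* went only from 91.0 to 77.6 and from 37.5 to 35.6 CPM, and *Eln* from 175 to 101.5 and from 81.3 to 71.5 CPM. The level of *Col1a1* thus depended far more on cells that also held these markers than the levels of *Postn* and *Eln* did.

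Between genotypes, edgeR called none of the 10 members in endothelial cells at day 7 (2.11% of genes, no member at an unadjusted p under 0.05) or at day 21 (0.8%, 2 members under 0.05), nor in the interaction (0.742%, 3 under 0.05). DESeq2 called no member in these 3 comparisons. In cells without *Dcn*, *Mgp* or *Ptprc*, 4 members were called at day 7 (2.02% of genes called in either direction), all higher in AT2-KO, which were *Col1a2* by 1.14, *Col3a1* by 0.96, *Fn1* by 1.23 and *Eln* by 0.67 log2 units. Values of single mice in this gate are not given here, and at day 7 genotype and sex cannot be told apart. From day 7 to day 21, 4 members fell in AT2-KO (14.3% of genes were called, 7.69% as lower), which were *Col1a1* by 3.24 ± 0.79, *Col1a2* by 2.32 ± 0.65, *Col3a1* by 2.41 ± 0.59 and *Eln* by 1.32 ± 0.32 log2 units. None of these 4 passed without AT2-KO day 21 mouse 2 (adjusted p = 0.0765 to 0.152), *Eln* (0.0512) and *Col1a2* (0.0646) did not pass without mouse 1 of that group, and *Col1a2* not without AT2-KO day 7 mouse 3 (0.0595). Under another hashtag rule the calls of *Col1a1* (0.0676) and *Col1a2* (0.137) were lost, and that of *Col1a2* also in both other gates (0.0523 and 0.0957). Of the free-RNA list 3 of 8 genes were lower in the same comparison, with a median of -1.67 log2 units over the 8. DESeq2 called 7 members (14.7% of genes). In fl/fl none of the 10 was called by edgeR (9.11% of genes), with 1 at an unadjusted p under 0.05.

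**Figure D5:**
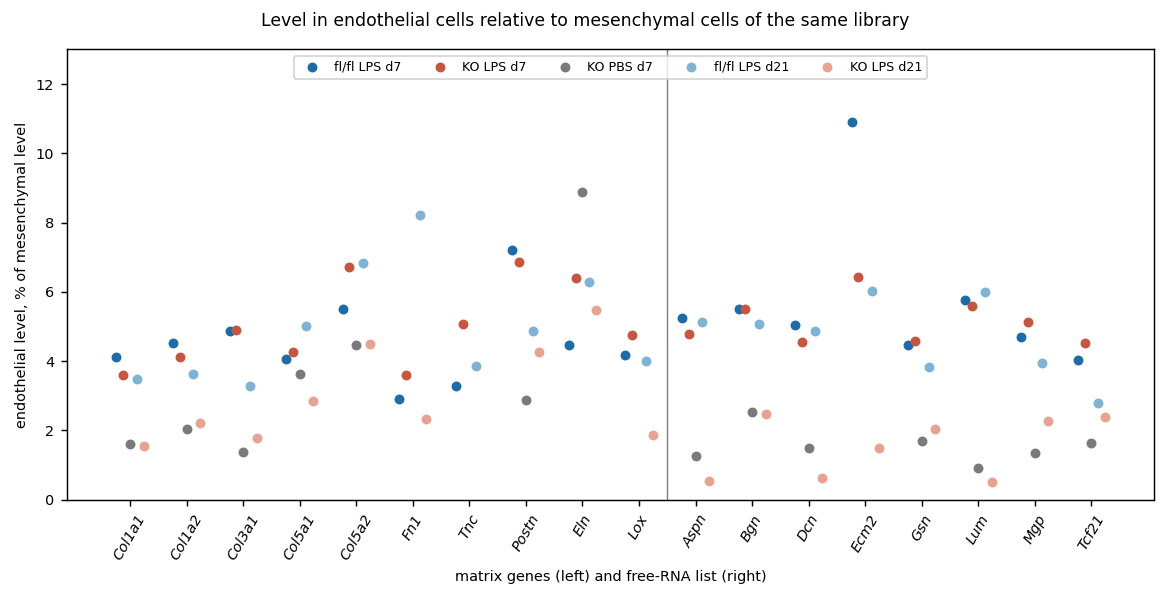
Level of each member and of the free-RNA list in endothelial cells as a percent of the mesenchymal level of the same library. Genes with fewer than 100 mesenchymal UMIs are not drawn. The median member lies close to the median of the free-RNA list in both day 7 LPS libraries (4.31% and 4.83% beside 5.13% and 4.96%) and above it after PBS (2.87% beside 1.49%), where *Eln* stands at 8.88%.

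AT2 cells, in which *Sftpc* took at least 5% of UMIs, are the cells in which the integrin was deleted. Only *Col1a1*, *Col3a1* and *Postn* had enough UMIs in them to be tested, and their library levels did not exceed 55.2, 96.2 and 22.9 CPM. At day 7 edgeR called 142 of 6634 genes between genotypes (2.14%, 0.95% of all higher) with *Col1a1* and *Col3a1* among those higher in AT2-KO. Both reached the filter on low counts (18.2 CPM in 3 mice) only through the AT2-KO day 7 mice, in which they are high, so that a difference from the other groups was built into their selection and their values are a description. *Col1a1* gave 4.31 ± 0.75 (SE, adjusted p = 0.00135), with 5.58, 0 and 0 CPM in the fl/fl mice and 19.9, 81.2 and 90.5 CPM in the AT2-KO mice. *Col3a1* gave 3.90 ± 0.62 (adjusted p = 0.000411), with 3.72, 11.2 and 4.76 CPM and 19.9, 113 and 99.4 CPM. Of the free-RNA list, 3 of 4 tested genes were also higher, by 1.51 to 3.03 log2 units, and 5 of the 390 AT2-KO cells held 73.7% of the *Col1a1* UMIs. *Col3a1* lost its call in a gate without markers of other classes (adjusted p = 0.0711), and DESeq2 gave neither gene an adjusted p. In AT2 cells without a UMI of *Dcn* or *Mgp* no member passed the filter on low counts, and the *Col1a1* library levels were 1.30 CPM in fl/fl and 8.81 CPM in AT2-KO. As a share of the mesenchymal level the members stood at medians of 0.0912% and 0.896% in fl/fl and AT2-KO at day 7, beside 0.286% and 1.20% for the free-RNA list.

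At day 21 none of the 3 tested members was called between genotypes in AT2 cells by edgeR (3.27% of genes), with 1 at an unadjusted p under 0.05, *Postn* at -1.15 ± 0.40 (adjusted p = 0.121). DESeq2 called none. The interaction of genotype and day called 33 genes (0.497%, 0.196% as negative) and 1 member, *Postn*, at -4.32 ± 0.99 (adjusted p = 0.0430). The mice through which *Postn* passed the filter were 2 of AT2-KO day 7 and 1 of fl/fl day 21, the groups in which it is high, so this value too is a description. Its mice were at 1.86, 5.59 and 0 CPM in fl/fl and 11.4, 26.4 and 21.3 CPM in AT2-KO at day 7, and at 17.5, 2.69 and 40.8 CPM and 12.8, 13.2 and 10.4 CPM at day 21. This call was lost at 20 cells per mouse (adjusted p = 0.0894), under another hashtag rule (0.272) and on leaving out any of 7 mice (0.058 to 0.405), and DESeq2 gave *Postn* no adjusted p. The UMIs lay in few cells: 1 of the 187 fl/fl cells at day 21 held 63.8% of its 47 *Postn* UMIs, and 2 of the 390 AT2-KO cells at day 7 held 67.3% of 49. From day 7 to day 21 *Postn* gave 3.44 ± 0.92 in fl/fl (adjusted p = 0.0485, 2.03% of genes called, 0.693% as higher), a call lost on leaving out any fl/fl mouse but mouse 2 of day 21 (adjusted p = 0.0648 to 0.476), at 20 cells per mouse (0.132) and under another hashtag rule (0.589). In AT2-KO *Col1a1* gave -3.61 and *Col3a1* -2.83 log2 units (12.6% of genes called, 7.34% as lower), a direction that the filter had fixed, and all 4 tested genes of the free-RNA list were lower too, with a median of -2.53 log2 units. After PBS, 26 AT2 cells were left, in which *Col1a1*, *Postn*, *Eln* and *Fn1* had 0 UMIs.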

How the data were processed

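Single-cell suspensions of mouse lung were sequenced with the 10x Genomics 5′ kit in 5 libraries. The values deposited by the authors are raw UMI counts of genes and hashtag antibodies by barcode; the submitters' processing notes name Cell Ranger 3.1, mm10 and Seurat 4.1.0. Their correction for free RNA and removal of doublets are not in these counts, and doublets were not called here. Barcodes under 700 genes, or outside 0.1 to 15% mitochondrial UMIs, were dropped. Hashtags holding 1% or more of the tag counts of a library were used, and were assigned to cells at 4-fold of the tag's background. UMIs were summed per mouse and class over cells with 1 hashtag, for mice with at least 10 cells and groups with at least 2 such mice, and tested with edgeR 4.0.16 in R 4.3.3 (TMM, filterByExpr, quasi-likelihood test, Benjamini-Hochberg over all genes, called at an adjusted p under 0.05), all groups in 1 fit per class. The test was checked on simulated data with 200 changed genes per comparison. It recovered 27 to 117 of them in mesenchymal, 112 to 173 in AT2 and 89 to 167 in endothelial cells. Of genes changed 2-fold in mesenchymal cells, it recovered 37 of 111 for genotype at day 7 and 6 of 99 at day 21. For the interaction it recovered 2 of 108 and for treatment at 2 cells per mouse 2 of 103. DESeq2 1.42.0 was the other tool. Counts of members by sign or at an unadjusted p under 0.05 are descriptions. The share of all genes that met the same condition is not given beside them. Levels are summed UMIs per 1000000 UMIs with exact Poisson intervals, shares carry exact binomial intervals, and both cover counting error only. Ratios of libraries carry exact binomial counting intervals at 95% and were counted, for members and background genes alike, where both libraries together held at least 100 UMIs. A subtype was the list with the largest share of its markers detected, with at least 2, ties being left unassigned. Python 3.11.15, numpy 2.4.6, scipy 1.17.1, pandas 2.3.3 and matplotlib 3.10.9 were used. Of the gene IDs, 99.6% matched GENCODE of GRCm38. The 10 members, the matrix list and the marker lists were chosen with earlier results of these data known. Genes outside the members were named where they were called in a mesenchymal comparison (at most 8 each) or were among the 3 most like *Col1a1*, *Fn1* or *Eln* in profile.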

Additional observations from a re-analysis of the deposited data

Results flagged for a closer look

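In AT2 cells the test of whether the difference between genotypes in *Postn* changed between days passed its threshold, although neither day's own difference did and several alternatives lost the call. The interaction of genotype and day was -4.32 ± 0.99 log2 units (SE, adjusted p = 0.0430, edgeR over 3 mice per group): AT2-KO lay above fl/fl at day 7 (3.17 ± 0.94, adjusted p = 0.0823) and below it at day 21 (-1.15 ± 0.40, adjusted p = 0.121). *Postn* passed the filter on low counts through 2 mice of AT2-KO day 7 and 1 of fl/fl day 21, the groups in which it is high, so its choice and its direction are not independent. The library levels of *Postn* in AT2 cells were low, at 2.54 and 15.5 CPM in fl/fl and AT2-KO at day 7 and 22.9 and 11.7 CPM at day 21, against 1124 to 1434 CPM in mesenchymal cells. In fl/fl at day 21 a single AT2 cell held 63.8% of the 47 *Postn* UMIs, and in AT2-KO at day 7 2 cells held 67.3% of 49. The call was lost on leaving out fl/fl day 7 mouse 1 (adjusted p = 0.326) or fl/fl day 21 mouse 3 (0.405), among others.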

How the results depend on the processing

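No paired analysis was possible because the labels give each group a single library, so that groups share fewer than 2 replicate numbers, and each mouse belongs to 1 library, with hashtag numbers that tie no mice together. No difference that passed its test, in the reported fit or the alternative, turned its direction under any alternative tried. *Postn*, which passed in no mesenchymal comparison as reported, ran in opposite directions in all mesenchymal cells and over mice for LPS against PBS, for genotype at day 21 and between days in fl/fl, and *Col5a1* did for genotype at day 21 (0.934-fold and 0.02 log2 units). Of the members' differences, 1327 stayed on their side of the threshold, 34 gained a call and 48 lost one. The 1327 include differences called neither in the reported fit nor in the alternative. That count therefore does not measure how stable the calls are. Genes called in the mesenchymal comparison of genotypes at day 7 numbered 109 with no filter on low counts. At day 21 they numbered 29 with DESeq2, 3 with a gate on *Pdgfra*, *Pdgfrb* and *Tcf21* alone, 113 with no filter and 0 under another hashtag rule, and 1 member was called with no filter. In the interaction these settings gave 25, 3, 90 and 0 genes and, with no filter, 1 member. Between days in fl/fl, genes called numbered 5 at 20 cells per mouse, 75 with DESeq2, 44 with that gate, 297 with no filter and 1 under the other hashtag rule, with 0, 4, 2, 6 and 0 members. In AT2-KO they numbered 275 with no filter (7 members), 38 in a gate without markers of other classes and 9 under the other hashtag rule, and DESeq2 called 1 member. In AT2 cells, genes called at day 7 numbered 79 with each day fitted alone, 221 with no filter, 50 under the other hashtag rule, 57 in the gate without markers of other classes and 86 in an added gate without *Dcn* and *Mgp*, with 0 and 5 members in the first pair and 0 in a stricter gate, which like the first left no member to test. At day 21 they numbered 348 and 25 with each day alone and under the other hashtag rule, with 1 member without a filter. In the interaction they numbered 53 with DESeq2, 107 with no filter (3 members) and 15 under the other hashtag rule, with 0 members at 20 cells per mouse and in the stricter gate. In endothelial cells, genes called numbered 450 at day 7 with no filter. At day 21 they numbered 255 with DESeq2, 162 with each day alone (2 members), 213 with no filter, 36 under the other hashtag rule and 155 in the stricter gate. In the interaction DESeq2, no filter and the other hashtag rule gave 228, 239 and 29. The cause of these changes was not tested. The number of genes tested differs between settings and is not given here, so these counts of members are descriptions only. Leaving out each mouse gave 3 to 17, 0 to 20 and 0 to 9 genes in the mesenchymal tests of genotype at day 7, day 21 and their interaction, 24 to 159 genes (1 to 5 members) in that of treatment (58 without AT2-KO LPS mouse 3), and 0 to 124 (0 to 4 members) and 2 to 67 between days in fl/fl and AT2-KO. It gave 43 to 147 genes (2 to 3 members), 77 to 160 (0 to 1) and 13 to 45 (0 to 3) in AT2 cells, and 115 to 245, 22 to 74 and 23 to 114 in endothelial cells, with 2319 to 3259 (8 to 10 members) for treatment. In cells with 1 hashtag, which after PBS number 11, *Postn* stood at 0.27-fold after LPS in AT2-KO and *Fn1* at 29.4-fold. A fit of alveolar fibroblasts alone, a stricter mesenchymal gate for AT2-KO at day 21 and, in mesenchymal and AT2 cells, treatment at 10 cells per mouse could not be made for lack of tagged cells.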
